A study of Mus musculus with 32 samples.

Results

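The distal ends of the lower and upper jaw primordia were compared in mouse embryos at embryonic day 13.5 in which the neural crest lacked Alk5. Alk5 (gene symbol Tgfbr1) is a cell surface kinase that passes on TGF-beta signals. The comparison used 8 of the 32 arrays of the series, namely the 4 labelled as mutant distal mandible and the 4 labelled as mutant distal maxilla, and every gene measured was included. Mutants were of the cross of Wnt1cre;Alk5fl/+ with Alk5fl/fl mice, on a background given as C57B6, and were recognised by a cleft palate and a calvarial defect. The 8 distal control arrays were of control littermates without those defects, whose genotype is given only as control, and the 8 mutant proximal arrays were of the other end of the mutant jaws. The Wnt1-Cre transgene recombines in neural crest, so other cells of the jaw, such as muscle, surface epithelium, vessels and leukocytes, keep the receptor. Each array measured total RNA of whole tissue pieces. The labels do not say whether arrays 1 to 4 of a group came from different embryos, so the p-values rest on a spread among arrays that may be technical in part.

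Both jaws form from neural crest of the first pharyngeal arch. Endothelin signalling switches on Dlx5, Dlx6 and Hand2 in the lower part of the arch and sets it apart from the upper part, where a network with Six2, Pou3f3 and Nr2f genes is active. The upper jaw region also adjoins the nasal placode, whose epithelium produces olfactory neurons, and muscle precursors of the tongue and jaw migrate into the mandible from mesoderm. TGF-beta signals in the crest are known for their part in palate closure, tendon and bone formation and tongue muscle growth.

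Expression is given as log2 values, so a difference of 1 is a 2-fold difference, and all differences are mandible minus maxilla with a standard error (SE) from limma. The SEs and p-values rest on a spread estimated over all 32 arrays of the series, in 8 groups, and not on the 8 compared arrays alone. Genes with a Benjamini-Hochberg adjusted p under 0.05 over all 13705 genes tested are called higher or lower. Of these genes, 1874 (13.7%) were called, 601 (4.39%) higher and 1273 (9.29%) lower in the mandible. A difference of at least 2-fold was found for 115 of the higher and 449 of the lower genes. The groups did not overlap for 1090 genes with all 4 mandible arrays above (7.95%) and for 1736 with all of them below (12.7%). Counts of list members given below are to be read against these shares. The lists were chosen with earlier results of these data known, and some genes stand in several lists. The comparison is therefore a description and not an independent test. A fit to the 8 mutant distal arrays alone called 1269 genes.

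Before the genes are described, 2 of the maxilla arrays need to be set apart. Arrays of the mandible correlated with each other at 0.985 to 0.997 over the genes tested and those of the maxilla at 0.926 to 0.996, against 0.932 to 0.969 between the jaws. The first principal component of the 8 arrays (51.4% of the variance) separated the jaws, and the second (29.2%) ran between maxilla array 1 at -54.5 and maxilla array 4 at 29.4, with the other 6 arrays between -8.1 and 11.9. Array 1 also had the smallest spread of values (SD 2.37, against 2.50 to 2.56 on the other 7), and all arrays numbered 1 in the series had brighter Cre spike-in controls (13.53 to 13.85, against 12.17 to 13.07 on the rest). The array labelled distal maxilla 4 was nearest to a control proximal maxilla array (r = 0.99), and the array labelled mutant proximal maxilla 4 was nearest to mutant distal maxilla array 3 (r = 0.994), so the readings of number 4 went against the labels of the end, though not of the jaw. Hand2, described below, fitted the label of the jaw on all 8 arrays. Without maxilla array 4 the count was 1586, and without array 1 it was 1927 with 21.7% of the calls higher, against 32.1% with all arrays. Without both it was 1112 with 18.2% higher. Where leaving out any 1 of the 8 arrays ended the call of a gene named below, the array with the largest effect is given. That array was often not the only one. Calls were lost in 6 of the 8 such fits for Actc1, Cdon, Myl4 and Nkx2-3. They were lost in 5 for Col14a1, Ednrb, Mki67, Myh3 and Tbx15, and in 4 for Aldh1a2, Cldn5 and Grem1.

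Tgfbr1 itself was not called. It read 12.99, 12.92, 12.96 and 12.97 on mandible arrays 1 to 4 and 13.32, 13.04, 12.99 and 12.91 on maxilla arrays 1 to 4, with overlapping groups and a difference of -0.10 ± 0.07 (SE, n = 4 arrays per jaw, adjusted p = 0.375). With the mean of its probe sets in place of the brightest one the direction turned (0.23, adjusted p = 0.579). The position of its probes with respect to the floxed exons was not established, and the genotype is therefore not checked by this value. Of 20 measured TGF-beta ligands, receptors and Smads, 0 were called, with a median difference of -0.07 against -0.01 over all genes tested, and 3 had an unadjusted p under 0.05. The common mediator Smad4 was one of those near the threshold (-0.17 ± 0.06, adjusted p = 0.0544), and it was called without maxilla array 2 (-0.18, adjusted p = 0.0494). Of 22 genes known to respond to TGF-beta, 2 were called. Tgfbi, an extracellular matrix protein named for its induction by TGF-beta, read 10.91 to 11.13 in the mandible and 12.07 to 12.34 in the maxilla (-1.19 ± 0.25, adjusted p = 0.00185). Acta2, the smooth muscle actin, read 11.44 to 12.65 in the mandible and 9.38, 9.72, 9.42 and 11.65 in the maxilla (2.05 ± 0.63, adjusted p = 0.0286). Its groups overlapped, and it was not called in 6 of the 8 fits that left out 1 array, with the largest p without mandible array 1 (1.86, adjusted p = 0.0827). Acta2 is also expressed in developing skeletal muscle, whose genes are described below.

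Promoter sequences are shown for 4 genes that stand for the main groups of genes that differed: Hand2, the largest difference in favour of the mandible, Myog and Actc1 from the muscle genes higher in the mandible, and Neurod1 from the neurogenic genes lower in it. Hand2, Myog and Neurod1 all encode basic helix-loop-helix factors, a family that binds the E-box CANNTG. Each sequence is the 250 bases before the transcription start in RefSeq (GRCm38.p6), 5′ to 3′ on the gene's strand, with E-boxes in capitals and, in Actc1, the CArG box, to which serum response factor binds. They lie at chr8:57320733-57320982 on the plus strand (Hand2), chr1:134289754-134290003 on the plus strand (Myog), chr2:114052876-114053125 on the minus strand (Actc1) and chr2:79456637-79456886 on the minus strand (Neurod1).
Hand2: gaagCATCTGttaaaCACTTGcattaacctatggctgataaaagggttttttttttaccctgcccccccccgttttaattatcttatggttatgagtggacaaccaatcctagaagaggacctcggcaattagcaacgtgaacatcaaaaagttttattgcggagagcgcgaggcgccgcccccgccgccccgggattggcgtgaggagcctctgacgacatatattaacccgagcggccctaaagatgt
Myog: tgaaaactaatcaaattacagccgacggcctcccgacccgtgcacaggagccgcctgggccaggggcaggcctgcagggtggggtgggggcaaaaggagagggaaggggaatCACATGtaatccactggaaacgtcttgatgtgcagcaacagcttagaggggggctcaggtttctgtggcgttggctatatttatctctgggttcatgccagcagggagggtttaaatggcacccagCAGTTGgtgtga
Actc1: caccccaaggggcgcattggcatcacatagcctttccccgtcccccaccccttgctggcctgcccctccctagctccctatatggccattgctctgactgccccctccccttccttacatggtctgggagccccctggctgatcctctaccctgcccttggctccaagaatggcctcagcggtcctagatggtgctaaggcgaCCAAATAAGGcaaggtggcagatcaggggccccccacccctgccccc
Neurod1: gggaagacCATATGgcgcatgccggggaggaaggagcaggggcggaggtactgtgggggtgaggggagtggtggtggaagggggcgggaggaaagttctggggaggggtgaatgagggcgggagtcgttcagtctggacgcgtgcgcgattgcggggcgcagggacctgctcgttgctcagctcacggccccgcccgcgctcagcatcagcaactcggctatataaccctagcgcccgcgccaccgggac
The Hand2 and Myog windows held 2 E-boxes each, the Neurod1 window 1 and the Actc1 window 0. An E-box of any kind is common, being present in 66.2% of all 32851 promoter windows of this length. The form CAGCTG, which reads the same on both strands and is a subset of CANNTG, was present in 13% of all windows. It was present in 33.3% of the 27 windows found for 23 of the 30 measured muscle genes, in 41.2% of the 17 windows found for 12 of the 17 measured neuron markers, in 28.6% of the 14 windows found for 11 of the 19 lower-jaw genes, in 5% of the 20 windows found for 15 of the 19 nasal and olfactory genes, and in 0 of the 18 windows found for 14 of the 16 upper-jaw genes. For CANNTG of any form the shares were 77.8%, 58.8%, 64.3%, 40% and 33.3% of these windows, in the same order of lists. The form CATCTG, found in the Hand2 window, was present in 14.4% of all windows. In the same order its shares were 11.1%, 23.5%, 21.4%, 10% and 5.56%. CACCTG was present in 17.2% of all windows and in 22.2%, 29.4%, 14.3%, 0% and 0%. Other motifs that were searched varied between the lists too. TATAAA, for one, was present in 35.7% of the lower-jaw and 5% of the nasal windows, against 12.4% of all windows. These shares are descriptions of the letters in the windows, and several windows belong to 1 gene.

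Of 19 measured genes of lower-jaw identity, 7 were called higher in the mutant mandible, 1 was called lower and 11 did not pass the test. Over all genes 4.39% were called higher and 9.29% lower, and the median difference of the list was 0.58. Hand2 encodes a transcription factor that lies downstream of endothelin in the lower arch. It read 13.66, 13.42, 13.28 and 13.43 on the mandible arrays and 7.24, 7.66, 8.22 and 7.77 on the maxilla arrays. The mandible arrays lay far above the maxilla arrays with little spread in either group, and the difference of 5.72 ± 0.53 (adjusted p = 3.89e-08) was the largest of any gene called higher. In control distal tissue the Hand2 difference was 5.00 (adjusted p = 2.36e-06).

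The homeobox gene Dlx6, which specifies the lower jaw together with its neighbour Dlx5, read 11.28, 11.07, 10.98 and 10.62 in the mandible and 9.67, 9.22, 8.73 and 7.82 in the maxilla, where array 4 was lowest (2.12 ± 0.46, adjusted p = 0.00212). Dlx5 read 11.91 to 12.13 in the mandible and 11.48, 11.03, 10.87 and 10.15 in the maxilla (1.12 ± 0.32, adjusted p = 0.0197). The groups did not overlap for either gene, but the Dlx5 call was lost without maxilla array 4 (0.88, adjusted p = 0.0875). Pitx1, a homeobox gene of the lower jaw and hindlimb, read 11.57 to 12.15 in the mandible and 9.30, 10.10, 10.13 and 10.48 in the maxilla (1.94 ± 0.30, adjusted p = 5.05e-05). Gsc, a homeobox gene of the lower jaw skeleton, was higher by 1.03 ± 0.26 (adjusted p = 0.0076), the transcriptional co-regulator gene Cited1 by 1.76 ± 0.45 (adjusted p = 0.00926) and the netrin receptor gene Unc5c by 1.21 ± 0.26 (adjusted p = 0.00215). Gsc (0.93, adjusted p = 0.0755), Cited1 (1.23, adjusted p = 0.146) and Dlx5 (1.05, adjusted p = 0.0917) were not called without maxilla arrays 1 and 4, which left 4 of the list called higher. Leaving out single arrays left 6 to 8 called higher, and the list's median was 0.44 without maxilla array 4.

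Not all members of the list followed Hand2. Bmper, which encodes a secreted BMP-binding protein, was lower in the mandible, at 7.71 to 8.77 against 9.52 to 10.39 (-1.72 ± 0.25, adjusted p = 2.98e-05). Hand1, a paralogue of Hand2, read 7.72 to 8.27 in the mandible and 6.96 to 8.04 in the maxilla, and was not called (0.58 ± 0.21, adjusted p = 0.0603) except without maxilla array 1 (0.80, adjusted p = 0.00671). Dlx3 overlapped between the jaws, at 8.45 to 9.05 and 7.59 to 9.68 (0.11 ± 0.47, adjusted p = 0.916), and Dlx4 was near the level of the low-signal filter (6.68 to 6.86) on both sides, at 6.11 to 7.05 and 5.70 to 6.70 (0.55 ± 0.27, adjusted p = 0.19). At the proximal end the same mutants had Dlx3 higher by 2.45 (adjusted p = 0.00232) and Dlx4 by 2.98 (adjusted p = 5.03e-08), and there 10 of the 19 were called higher with a median of 1.14. The difference between the ends was itself called for Dlx4 (-2.43 ± 0.38, adjusted p = 5.49e-04) and for the homeobox gene Gbx2 (-2.68 ± 0.38, adjusted p = 1.60e-04), which lay under the filter level on all 8 distal arrays.

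**Figure D1:**
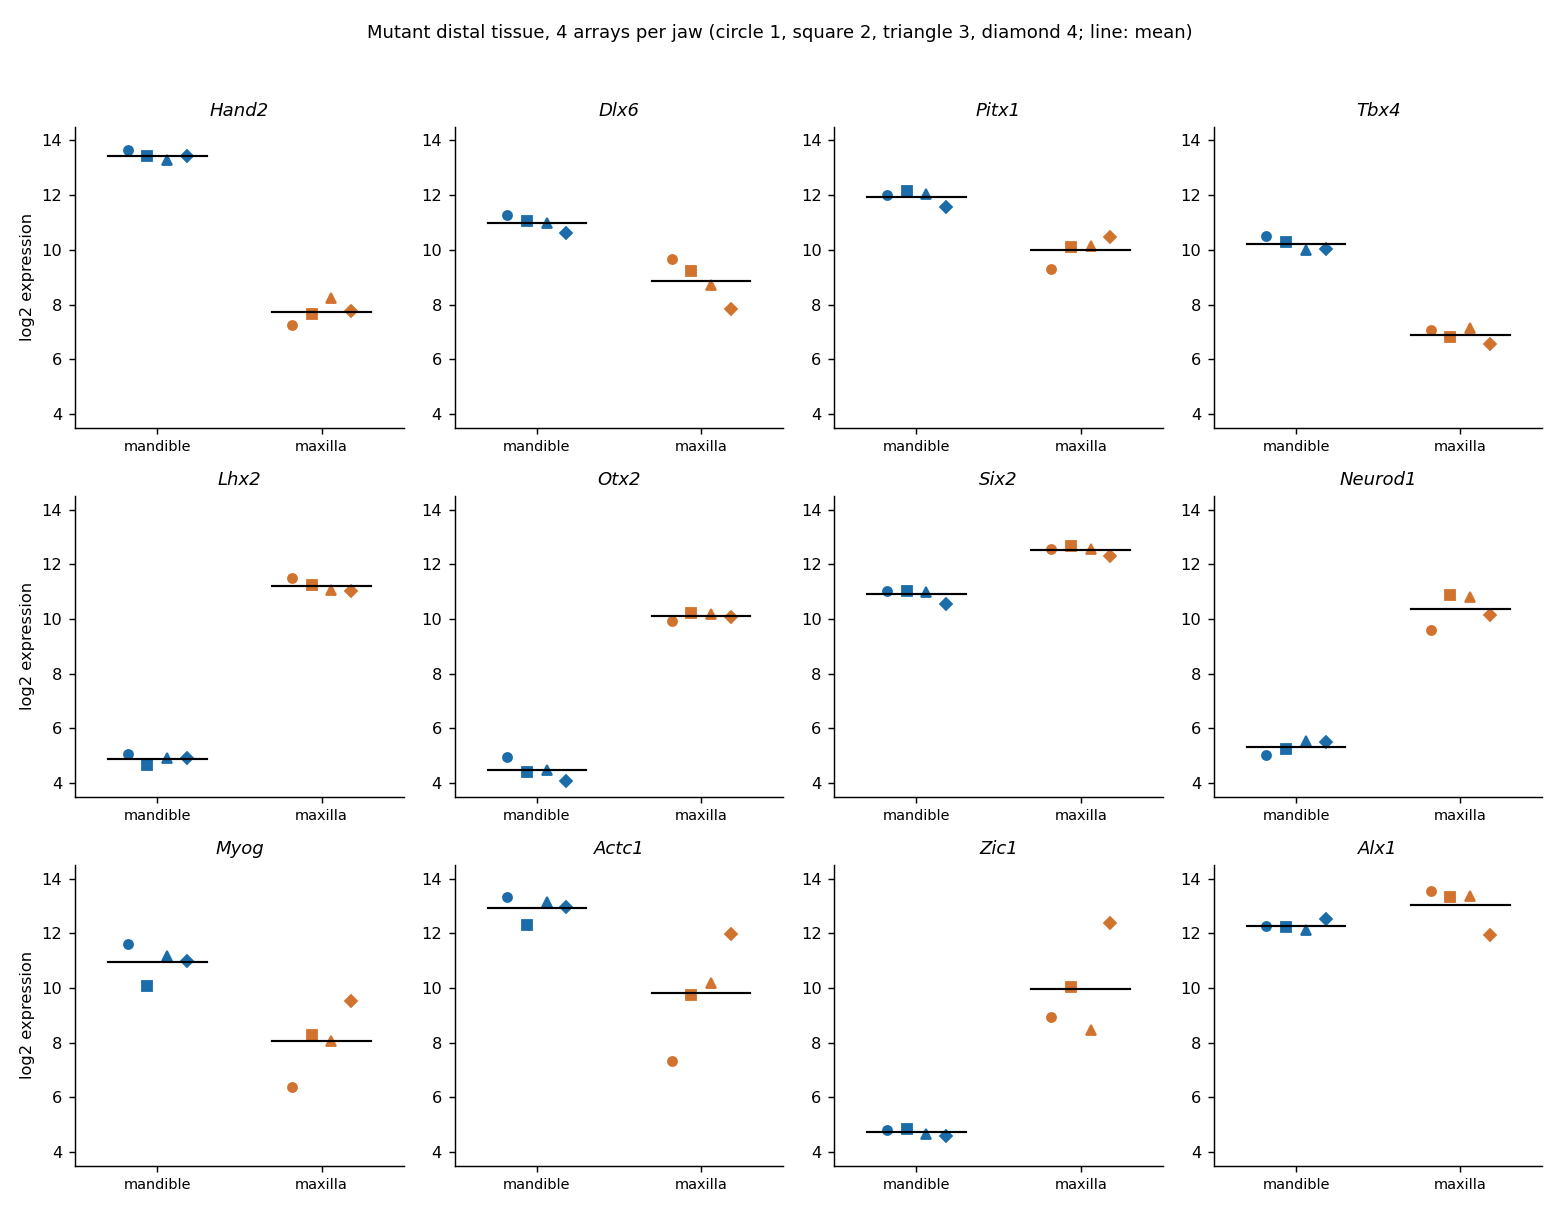
Log2 expression (vertical axis) of 12 genes on the 4 mandible and 4 maxilla arrays of mutant distal tissue, with marker shapes for array numbers 1 to 4 and a line at each group mean. The groups are apart for Hand2, Tbx4, Lhx2 and Otx2, while maxilla array 4 lies away from the other 3 for Zic1 (12.38) and Alx1 (11.94).

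Apart from Hand2, the 14 largest differences in favour of the mandible were those of 4 regulator and signalling genes and of muscle genes. Cbln4, of the secreted cerebellin family, read 10.12 to 10.69 in the mandible and 5.70, 4.88, 5.79 and 7.45 in the maxilla (4.36 ± 0.47, adjusted p = 3.45e-07). The LIM homeobox gene Lhx9 read 8.85 to 9.43 in the mandible and 5.16 to 5.61 in the maxilla, where it lay under the filter level on all 4 arrays, so the size of 3.84 ± 0.40 (adjusted p = 2.00e-07) is approximate. Tbx4, a T-box gene best known from the hindlimb, read 10.517, 10.288, 10.001 and 10.036 against 7.08, 6.83, 7.16 and 6.55 (3.31 ± 0.24, adjusted p = 1.20e-09), the smallest adjusted p among these genes. The orphan receptor gene Gpr50 read 10.50 to 10.96 in the mandible and 4.61, 5.09, 4.61 and 9.57 in the maxilla. Its difference of 4.70 ± 0.97 (adjusted p = 0.00149) was 5.90 without array 4, which read near the mandible. In controls Cbln4, Lhx9 and Tbx4 were called higher in the mandible too, by 3.84, 3.04 and 2.02, and the difference of Gpr50 was 3.14 (adjusted p = 0.128).

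Of 16 measured genes of upper-jaw identity, 7 were called lower in the mandible, 0 were called higher and 9 did not pass the test, with a median of -0.84. The LIM homeobox gene Lhx2 showed the largest difference of all genes tested. It read 5.05, 4.67, 4.90 and 4.91 in the mandible and 11.49, 11.22, 11.06 and 11.03 in the maxilla (-6.32 ± 0.52, adjusted p = 1.09e-08). All 4 mandible values lay under the filter level, where RMA compresses differences, so the size is approximate. Six2, a homeobox gene of frontonasal and upper jaw mesenchyme, read 11.01, 11.02, 10.99 and 10.55 against 12.58, 12.67, 12.55 and 12.31 (-1.63 ± 0.23, adjusted p = 1.91e-05), with every value well above the filter level. The forkhead gene Foxl2 (-1.84 ± 0.36, adjusted p = 8.54e-04), the nuclear receptor gene Nr2f1 (-1.40 ± 0.36, adjusted p = 0.00973) and the TALE homeobox gene Meis1 (-0.73 ± 0.20, adjusted p = 0.0156) were lower too. Nr2f1 was not called without mandible array 4 (-1.06, adjusted p = 0.058), which was the lowest for that gene, and Meis1 not without mandible array 2 (-0.65, adjusted p = 0.0605). Zic1, a zinc finger gene, read 4.58 to 4.84 in the mandible and 8.95, 10.05, 8.47 and 12.38 in the maxilla, so the groups did not overlap, but its call (-5.24 ± 1.55, adjusted p = 0.0227) was lost without array 4 (-4.44, adjusted p = 0.0814).

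Among the upper-jaw genes not called were Pou3f3 (-0.65 ± 0.30, adjusted p = 0.158), Nr2f2 (-0.68 ± 0.32, adjusted p = 0.162), Tbx22 (-0.82 ± 0.48, adjusted p = 0.278), a gene of palate closure, and Irx3 (0.13 ± 0.26, adjusted p = 0.799). The homeobox gene Alx1 was expressed at a high level in both jaws. It read 12.12 to 12.51 in the mandible and 13.56, 13.32, 13.38 and 11.94 in the maxilla, where array 4 fell below the mandible arrays (-0.76 ± 0.47, adjusted p = 0.31). At the proximal end Alx1 was at 5.68 to 7.44 in the mandible and 12.01 to 13.21 in the maxilla, and the difference between the ends was called (5.17 ± 0.67, adjusted p = 4.88e-05). Of the 16 upper-jaw genes, 3 were called lower and 2 higher in the mandible at the mutant proximal end, with a median of 0.22. The list's mean overlapped between the jaws there (10.30 to 10.82 and 10.30 to 11.10). The difference between the ends was called for 5 of the 16, with a median of -1.04 over the list.

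Of 19 measured nasal and olfactory genes, 12 were called lower in the mandible, 0 were called higher and 7 did not pass the test. Of the 19, 14 had all mandible arrays below all maxilla arrays, against 12.7% of all genes tested. The median was -2.26, although 7 lay under the filter level on all 4 mandible arrays and 0 on all 4 maxilla arrays. These 7 passed the filter through arrays of other groups, so a lower mandible was partly fixed in advance for them. The count of 14 is therefore a description. Of the 12, Lhx2 and Emx2 are also in the upper-jaw list and Pax7 in the muscle list. Neurog1 and Neurod1 encode factors that drive olfactory progenitors into neuronal differentiation. Neurog1 read 4.39 to 5.14 in the mandible and 8.96 to 9.64 in the maxilla (-4.62 ± 0.42, adjusted p = 3.45e-08). Neurod1 read 5.02, 5.25, 5.55 and 5.49 against 9.59, 10.88, 10.79 and 10.15 (-5.02 ± 0.64, adjusted p = 4.28e-06). The basic helix-loop-helix genes Nhlh1 (-2.66 ± 0.31) and Nhlh2 (-4.14 ± 0.78), the zinc finger genes Sp8 (-4.69 ± 0.66) and, outside the list, Fezf1 (-4.12 ± 0.58), the eye and forebrain homeobox gene Six3 (-2.49 ± 0.33) and the G protein subunit gene Gng8 (-1.68 ± 0.21) were lower with adjusted p from 1.29e-06 to 5.35e-04. Otx2, a homeobox gene of the head ectoderm and forebrain, read 4.06 to 4.94 in the mandible and 9.91 to 10.23 in the maxilla (-5.64 ± 0.62, adjusted p = 5.34e-07). The values of the nasal list averaged 7.17, 7.17, 7.21 and 7.09 on mandible arrays 1 to 4 and 9.41, 9.24, 9.29 and 9.42 on maxilla arrays 1 to 4, so maxilla arrays 1 and 4 lay close to the other 2 here. Every fit that left out 1 array called 12 of the list lower.

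Of 17 measured marker genes of neurons, 12 were called lower in the mandible and 0 higher (9 to 13 lower when single arrays were left out), with a median of -2.79, and their mean level lay between 7.56 and 7.67 in the mandible and between 9.53 and 10.72 in the maxilla. Stmn3, a tubulin-binding protein of neurons, read 6.31 to 6.97 against 11.16 to 12.70 (-5.16 ± 0.79, adjusted p = 5.04e-05), and Stmn2, of the same family, 7.94 to 9.33 against 12.01 to 12.65 (-3.48 ± 0.44, adjusted p = 3.83e-06). The neuronal RNA-binding protein genes Elavl3 (-3.30 ± 0.43) and Elavl4 (-3.59 ± 0.51) were lower too. Of the 17, 4 lay under the filter level on all 4 mandible arrays and 0 on all 4 maxilla arrays. For these 4 a lower mandible was partly fixed in advance too. Insm1 (-4.33 ± 0.36, adjusted p = 1.16e-08), a zinc finger gene of newly formed neurons, Uncx (-4.19 ± 0.53), Fstl5 (-4.39 ± 0.59), Fam107a (-4.48 ± 0.45) and the claudin gene Cldn9 (-5.23 ± 0.47) completed the 14 largest differences in favour of the maxilla, of which 10 lay under the filter level on all 4 mandible arrays. In whole tissue, fewer cells of a type and less RNA per cell cannot be told apart.

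Skeletal muscle genes had more members called higher than any other list, with 22 of 30 higher, 1 lower and 7 not past the test, and a median of 1.94. Muscle of the jaws and tongue comes from mesoderm and keeps the receptor. Myog, the factor that starts muscle differentiation, read 11.61, 10.08, 11.16 and 10.97 in the mandible and 6.39, 8.27, 8.06 and 9.53 in the maxilla (2.89 ± 0.81, adjusted p = 0.0161). Actc1, an actin of embryonic muscle, read 13.34, 12.32, 13.15 and 12.96 against 7.34, 9.75, 10.20 and 11.97 (3.13 ± 1.00, adjusted p = 0.0358). Maxilla array 1 was lowest and array 4 highest for both genes, and mandible array 2 was the lowest of its group. The giant sarcomere protein gene Ttn (3.26 ± 0.90), the embryonic myosin gene Myh3 (3.21 ± 0.96), the troponin genes Tnnc1, Tnnc2 and, outside the list, Tnnt2 (2.97 to 3.09) and the myosin light chain genes Myl1 and Myl4 (2.91 and 2.94) were among the 14 largest differences in favour of the mandible. Genes with smaller SEs were the acetylcholine receptor genes Chrna1 (1.52 ± 0.32, adjusted p = 0.00175) and Chrng (1.14 ± 0.26, adjusted p = 0.00407), Tnni2 (0.75 ± 0.16), Tnnt1 (2.88 ± 0.67) and the myoblast fusion gene Mymk (1.59 ± 0.34, adjusted p = 0.00211).

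The count of muscle calls depended on single arrays. It was 9 without mandible array 1, 10 without mandible array 3, 12 without maxilla array 1 and 13 without maxilla array 2, and lay between 15 and 22 without each of the other 4. With number 1 left out of all groups it was 5, and with number 3 left out 4. In a fit to the 8 arrays with the array number as a block it was 16. Without maxilla arrays 1 and 4 it was 10, while the list's median was 2.28, and without maxilla array 1 the median was 1.99. Myog (2.34, adjusted p = 0.0657), Actc1 (2.31, adjusted p = 0.142), Myh3 (2.75, adjusted p = 0.0758), Myl1 (2.46, adjusted p = 0.0737), Myl4 (2.48, adjusted p = 0.101) and Tnnc2 (2.65, adjusted p = 0.062) were not called without maxilla array 1, the array that raised their p most. Mymk, Chrna1, Chrng, Tnnt1 and Tnni2 were called in each of the 8 fits that left out 1 array and in the fit without maxilla arrays 1 and 4. The mean of the list ran from 8.53 to 9.63 in the mandible and from 7.11 to 8.18 in the maxilla, without overlap. In controls it ran from 7.34 to 8.86 in the mandible and from 6.84 to 8.99 in the maxilla, with overlap, a median difference of 0.21 and 0 of 30 called higher. The test of whether the jaw difference differed between mutants and controls called 0 of the 30, of which 13 had an unadjusted p under 0.05, with a median of 1.62 for that interaction, so a difference between the genotypes was not shown for any of them. At the mutant proximal end 8 of the 30 were called higher, with a median of 1.95. Pax7, which marks muscle precursors but also nasal and cranial crest cells and stands in both lists, went the other way, at 6.97 to 7.98 in the mandible and 10.81, 8.86, 10.63 and 8.22 in the maxilla (-2.15 ± 0.55, adjusted p = 0.00837).

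**Figure D2:**
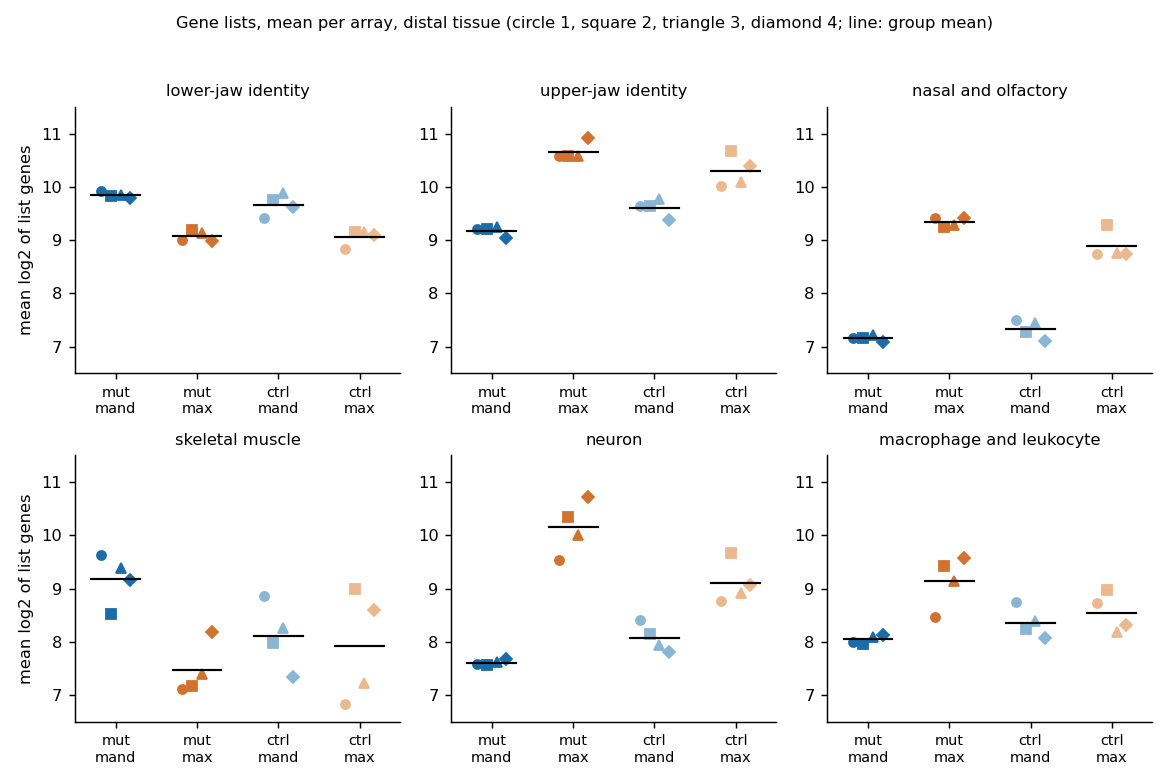
Mean log2 level (vertical axis) of the measured genes of 6 lists on each array of mutant and control distal tissue, mandible and maxilla, with marker shapes for array numbers 1 to 4 and a line at each group mean. In mutants the jaws do not overlap for any of the 6 lists, and in controls they overlap for skeletal muscle (7.34 to 8.86 and 6.84 to 8.99) and for macrophages (8.06 to 8.74 and 8.18 to 8.97).

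Macrophage and leukocyte markers were lower in the mutant mandible, with 15 of 18 called lower and 0 higher (14 to 16 lower when single arrays were left out) and a median of -1.21. With number 4 left out of all groups 8 were called lower, and with the array number as a block 10. The mean level of the list was 7.97 to 8.13 in the mandible and 8.47, 9.43, 9.14 and 9.57 in the maxilla. The Fc receptor gene Fcgr3 read 7.16 to 7.41 against 8.53 to 9.23 (-1.61 ± 0.23, adjusted p = 1.43e-05), the complement gene C1qc 7.84 to 8.21 against 8.61 to 10.13 (-1.53 ± 0.27, adjusted p = 2.98e-04) and Ms4a7, a macrophage membrane gene, 7.01 to 7.76 against 8.26 to 9.76 (-1.87 ± 0.29, adjusted p = 5.10e-05). Maxilla array 1 was the nearest to the mandible for all 3 genes. In control distal tissue 0 of the 18 were called, 1 had an unadjusted p under 0.05 and the median was -0.25. The interaction of genotype and jaw called 1 of the 18, Ptprc, with a median of -0.91 and 13 at an unadjusted p under 0.05, so for the other 17 a difference between the genotypes was not shown. At the mutant proximal end 0 were called, 1 had an unadjusted p under 0.05 and the median was -0.04. The difference between the ends was called for 3 of the 18 (Fcgr3, C1qc and Ms4a7), with a median of -1.13. The granulocyte and monocyte genes S100a8 (-3.30 ± 0.70, adjusted p = 0.00189) and S100a9 (-3.05 ± 0.72, adjusted p = 0.00495) and the arginase gene Arg1 (-3.01 ± 0.63, adjusted p = 0.00169) were lower in the distal mandible too. At the proximal end their differences were 0.88, 1.04 and 0.89, and the difference between the ends was called for each (-4.18, -4.09 and -3.90, with adjusted p = 0.0254, 0.0339 and 0.0204).

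Marker lists of brain and pituitary and of eye and lens had higher mean levels in the maxilla, as the neuron and nasal lists did. The brain and pituitary list lay between 6.74 and 6.93 in the mandible and at 7.96, 7.81, 7.68 and 9.61 on maxilla arrays 1 to 4. Of its 9 measured genes 2 were called lower (Six3 and Otx2) and 1 higher (Pitx1), with a median of -0.84. The eye and lens list lay between 6.92 and 6.99 in the mandible and at 7.91, 7.69, 7.70 and 8.63 in the maxilla, with 2 of 6 called lower (Six3 and the pigment cell gene Pmel) and a median of -0.71. Pmel (-1.24 ± 0.41, adjusted p = 0.0449) was not called in 7 of the 8 fits that left out 1 array, with the largest p without mandible array 3 (-1.18, adjusted p = 0.102). Maxilla array 4 was highest for both lists. The low-signal filter kept 6 of the 13 eye and lens genes and 9 of the 15 brain and pituitary genes. Without the filter 1 of 12 eye and lens genes was called lower, with a median of -0.20. Of 12 brain and pituitary genes 2 were then lower and 1 higher, with a median of -0.51. Of 6 tongue epithelium and taste markers 1 was called, the progenitor gene Sox2 (-2.28 ± 0.25, adjusted p = 5.34e-07), and their mean lay between 8.32 and 8.52 in the mandible and between 8.65 and 9.64 in the maxilla.

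Other cell types had fewer calls, to be read against the 4.39% of all genes called higher and the 9.29% called lower. Of 8 Schwann cell and glial markers, 4 were lower in the mandible (2 to 4 when single arrays were left out), among them the crest and glial factor gene Sox10 (-1.24 ± 0.23, adjusted p = 4.18e-04) and the fatty acid binding protein gene Fabp7 (-3.19 ± 0.69, adjusted p = 0.00241). Of 4 melanocyte markers 3 were lower (1 without maxilla array 2 or 3), including the pigment enzyme gene Dct (-1.56 ± 0.41, adjusted p = 0.00974). Epithelial markers were lower for 5 of 15, with the keratin genes Krt8 (-2.60 ± 0.27, adjusted p = 2.65e-07) and Krt18 (-2.26 ± 0.27) and the adhesion gene Epcam (-1.21 ± 0.20) as examples, and a median of -0.25. The epithelial list as a whole was split, as 7 of the 15 had a difference above 0, with 0 called higher. In controls its median was 0.24. Endothelial markers had 1 of 12 called (Cldn5, 0.77 ± 0.24, adjusted p = 0.0312) and erythroid markers 0 of 6, with 0 at an unadjusted p under 0.05. Cldn5 was not called without maxilla array 1 (0.47, adjusted p = 0.154). Proliferation genes were higher in the mandible for 4 of 16 (1 to 3 when single arrays were left out), by small amounts. Ccne1, a cyclin of the start of S phase, differed by 0.42 ± 0.09, and Mki67, a marker of cycling cells, by 0.26 ± 0.08 (0.22, adjusted p = 0.0996 without mandible array 1). Hypoxia and glycolysis genes had 2 of 18 higher, including the hexokinase gene Hk2 (0.52 ± 0.13). The called neuron, macrophage, glial and epithelial markers were thus lower in the mandible, as the called upper-jaw and nasal genes were, and their part in the differences of other genes was not tested.

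Mesenchymal regulators and skeletal genes split between the jaws, where 4.39% of all genes were called higher in the mandible and 9.29% lower. Of 20 genes of the arch and its ectomesenchyme, 3 were higher in the mandible and 3 lower. Lhx8, a LIM homeobox gene of jaw and tooth mesenchyme, read 11.70 to 12.19 in the mandible and 8.88, 10.76, 10.57 and 10.45 in the maxilla (1.82 ± 0.34, adjusted p = 6.18e-04), and Prrx1, a homeobox gene of limb and head mesenchyme, 13.49 to 13.66 against 12.51 to 12.87 (0.88 ± 0.16, adjusted p = 3.20e-04). The forkhead genes Foxc1 and Foxd1 went the other way. Foxc1, which acts in skull and eye mesenchyme, read 8.34 to 8.60 against 10.48, 12.10, 11.65 and 12.20 (-3.15 ± 0.42, adjusted p = 8.69e-06), and Foxd1 9.56 to 9.82 against 11.63 to 12.31 (-2.37 ± 0.29, adjusted p = 2.06e-06). Of 20 cartilage genes 4 were lower in the mandible, namely the chondrocyte factor genes Sox9 (-1.13 ± 0.30, adjusted p = 0.0115) and Sox5 (-1.08 ± 0.24, adjusted p = 0.00343), Col9a2 (-1.28 ± 0.38) and Epyc (-1.72 ± 0.54), with Epyc not called in 7 of the 8 fits that left out 1 array (adjusted p up to 0.0748, without maxilla array 2) and Col9a2 not without maxilla array 4 (-1.11, adjusted p = 0.0803), while the main cartilage collagen gene Col2a1 overlapped between the jaws and was not called (-0.82 ± 0.36, adjusted p = 0.131). Of 9 bone genes only Dlx5 was called, and of 10 tendon genes only Col14a1 (-1.40 ± 0.45, adjusted p = 0.0368), which was not called without maxilla array 4 (-1.20, adjusted p = 0.108). Of 20 palate and tooth genes, 3 were higher (Meox1, Tbx3 and Nkx2-3, by 0.78 to 1.42) and 3 lower (Tbx15, Pax9 and Mn1, with differences of -0.78 to -1.28). Of these 6 only Meox1 and Mn1 were called in every fit that left out 1 array, while Tbx15 was not called without mandible array 4 (-1.02, adjusted p = 0.152), Nkx2-3 not without maxilla array 3 (0.69, adjusted p = 0.0757), Pax9 not without mandible array 1 (-0.70, adjusted p = 0.0739) and Tbx3 not without mandible array 1 (0.88, adjusted p = 0.0524). Of 30 extracellular matrix genes 3 were higher, all of them chains of collagen VI such as Col6a1 (1.13 ± 0.26, adjusted p = 0.00344) and Col6a2 (0.89 ± 0.23), and 5 lower. The 5 included Col8a1 (-2.43 ± 0.26, adjusted p = 3.45e-07) and Lox, the enzyme that cross-links collagen, which read 8.94 to 9.10 against 11.16 to 12.23 (-2.60 ± 0.37, adjusted p = 1.58e-05).

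The signalling pathway lists are to be read against the 13.7% of all genes that were called. Of 16 retinoic acid genes, 5 were lower in the mandible and 0 higher, with a median of -0.20. They included the enzymes that make retinoic acid, Aldh1a3 (-2.94 ± 0.44, adjusted p = 3.68e-05), which read 5.84 to 7.25 against 9.17 to 10.65, and Aldh1a2 (-1.20 ± 0.37, adjusted p = 0.0286), the retinaldehyde reductase gene Dhrs3 (-1.19 ± 0.21, adjusted p = 2.20e-04) and the retinol uptake receptor gene Stra6 (-0.94 ± 0.26, adjusted p = 0.0132). Aldh1a2 was not called without mandible array 4 (-0.996, adjusted p = 0.111) and Stra6 not without maxilla array 3 (-0.73, adjusted p = 0.0594). Of 29 Wnt genes, 5 were higher and 2 lower, with a median of 0.48. Wnt inhibitor genes were on both sides. The secreted inhibitor genes Sfrp4 (1.25 ± 0.34) and Notum (1.12 ± 0.21, adjusted p = 6.78e-04) were higher, as was the Dickkopf co-receptor gene Kremen1 (0.59 ± 0.10, adjusted p = 3.13e-04). The secreted inhibitor genes Sfrp1 (-1.36 ± 0.31, adjusted p = 0.00325) and Sfrp2 (-0.70 ± 0.20) were lower. Sfrp4 was not called without mandible array 4 (1.11, adjusted p = 0.0526) and Sfrp2 not without maxilla array 4 (-0.57, adjusted p = 0.0825). Of 22 BMP genes 1 was higher, the antagonist Grem1 (0.91 ± 0.28, adjusted p = 0.0252), and 3 lower, the receptor gene Bmpr1b (-1.69 ± 0.32, adjusted p = 5.79e-04), the target gene Id4 (-1.64 ± 0.25, adjusted p = 4.98e-05) and Bmper. Grem1 was not called without maxilla array 4 (0.77, adjusted p = 0.0891). Bmp4 itself read 12.15 to 12.44 in the mandible and 10.52 to 12.12 in the maxilla and was not called (0.81 ± 0.32, adjusted p = 0.0923) except without maxilla array 1 (1.02, adjusted p = 0.0407).

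Fibroblast growth factor genes had 3 of 20 higher, namely Fgf7 (1.46 ± 0.41, adjusted p = 0.0163), the receptor gene Fgfr4 (1.33 ± 0.25, adjusted p = 5.35e-04), which is also expressed in muscle precursors, and the target gene Etv4 (0.51 ± 0.14), and 1 lower, Fgf17 (-1.03 ± 0.30). Fgf7 was not called without mandible array 1 (1.33, adjusted p = 0.0547) and Fgf17 not without mandible array 2 (-0.98, adjusted p = 0.0581). Of 15 Hedgehog genes 2 were higher, the transcription factor gene Gli3 (0.66 ± 0.19, adjusted p = 0.0177) and the co-receptor gene Cdon (0.62 ± 0.20, adjusted p = 0.0435), and neither was called without maxilla array 4 (0.55, adjusted p = 0.0732, and 0.38, adjusted p = 0.191). The ligand gene Shh read 10.12 to 10.69 in the mandible and 10.49 to 12.23 in the maxilla and was not called (-0.68 ± 0.37, adjusted p = 0.233). Of 18 endothelin and Notch genes, the G protein gene Gna11 was higher (0.39 ± 0.10) and the endothelin receptor gene Ednrb (-1.08 ± 0.34, adjusted p = 0.0347) and the Notch target gene Hey1 (-0.66 ± 0.18, adjusted p = 0.0157) were lower, with Ednrb not called without maxilla array 4 (-0.92, adjusted p = 0.106). The first arch forms in front of the Hox-expressing region, and of 8 measured Hox genes 0 were called, with 1 at an unadjusted p under 0.05.

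The same contrast in control littermates asked whether these jaw differences are also found with the receptor present. In control distal tissue 202 genes (1.47%) were called, 54 (0.394%) higher and 148 (1.08%) lower in the mandible. The count was 130 without control mandible array 4. The mutant and control contrasts share no array. They and the proximal contrast below do use 1 spread estimated over all 32 arrays, so their calls are not independent. Of the 202, 168 (83.2%) were called in mutants in the same direction and 0 in the opposite one, which is 8.97% of the mutant calls. Of the 1874 mutant calls, 1749 (93.3%) had the same sign in controls. The differences of all genes correlated between the genotypes at r = 0.771, a value across genes, which are not independent replicates. They were wider in mutants, with an SD over genes of 0.509 against 0.321, and the genes called in mutants had a median size of 0.647 in mutants and 0.254 in controls. Genes taken for their calls in mutants were chosen on the mutant values, so these medians are a description. The array labelled control distal maxilla 2 read Zic1 at 12.81, against 5.24 to 7.62 on the other 3 of its group, and Alx1 at 11.92, against 13.07 to 13.27, and was nearest to control proximal maxilla array 3 (r = 0.988), so it too went against the label of its end. Without it 142 genes were called. Control mandible array 3 had a 3' minus 5' signal of 2.23 for Gapdh, a measure of RNA integrity, against -0.18 to 0.06 on the 8 mutant distal arrays, and without it 158 genes were called.

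**Figure D3:**
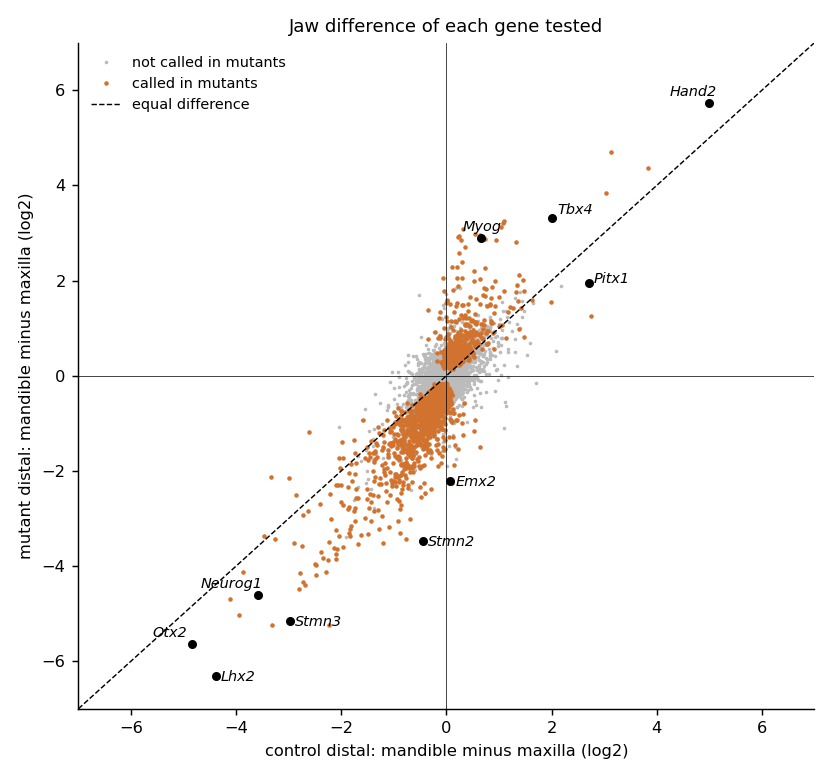
Mandible minus maxilla difference (log2) of each of the 13705 genes tested in control distal tissue (horizontal axis) and mutant distal tissue (vertical axis), with genes called in mutants in orange and 10 named genes in black. Hand2, Pitx1, Otx2 and Neurog1 lie far from 0 on both axes, and Emx2 and Stmn2 lie near 0 in controls (0.07 and -0.45) and below it in mutants (-2.21 and -3.48).

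The test of the difference itself, the interaction of genotype and jaw at the distal end, called 14 genes (0.102%), 1 positive (0.0073%) and 13 negative (0.0949%), while 1001 had an unadjusted p under 0.05. The clearest was Emx2, a homeobox gene of forebrain and olfactory regions. It read 7.99, 8.50, 8.13 and 8.04 in the mutant mandible and 10.32, 10.32, 10.51 and 10.35 in the mutant maxilla (-2.21 ± 0.29, adjusted p = 6.18e-06). In controls it read 10.75, 10.42, 10.65 and 10.63 in the mandible and 10.87, 9.84, 10.98 and 10.47 in the maxilla, a difference of 0.07. The mutant mandible thus stood below the 3 other groups, which overlapped, and the interaction was -2.28 ± 0.41 (adjusted p = 0.0227). At the mutant proximal end the difference was 0.12 (adjusted p = 1), and the difference between the ends was called (-2.33, adjusted p = 0.00171).

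For Stmn2 and the factor gene Ebf1, which acts in olfactory neurons and other lineages, the mutant mandible also lay below the other 3 groups. The control mandible read 10.79 to 11.73 for Stmn2 and 10.14 to 11.61 for Ebf1, against 7.94 to 9.33 and 8.35 to 8.98 in the mutant mandible, and the interactions were -3.03 ± 0.62 and -2.04 ± 0.42. The leukocyte gene Ptprc read 6.57 to 6.96 in the mutant mandible and 7.38 to 8.37 in the mutant maxilla, and 7.71 to 8.10 and 7.27 to 7.94 in controls (-1.56 ± 0.32). Cbln2, a relative of Cbln4, read 6.28 to 6.52 and 7.59 to 8.79 in mutants and 7.21 to 8.07 and 6.71 to 7.43 in controls, so the direction of its means turned (-2.14 ± 0.44). Dnajc6, a clathrin uncoating gene of neurons, had a mandible minus maxilla difference of -2.38 in mutants and -0.85 in controls (-1.52 ± 0.32). The single positive gene, the ion channel gene Trpm1, read 7.60 to 8.16 in the mutant mandible, 6.13 to 6.62 in the mutant maxilla and 6.33 to 6.95 in controls (1.19 ± 0.24). These 6 genes passed at an adjusted p of 0.0497, just inside the threshold. When single arrays of the 4 groups were left out, the count of 14 ran from 0 (without mutant mandible array 1 or 2 or control mandible array 3) to 26 (without control maxilla array 2). It was 1 to 6 without mutant mandible array 3 or 4, mutant maxilla array 2 or 3, control mandible array 1 or 2, or control maxilla array 3 or 4. Over 30 alternatives the Emx2 interaction kept its sign but did not pass in 13 (adjusted p 0.00304 to 0.525), and each of the others failed in 22 to 26 of them (Trpm1 in 23 of 29).

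**Figure D4:**
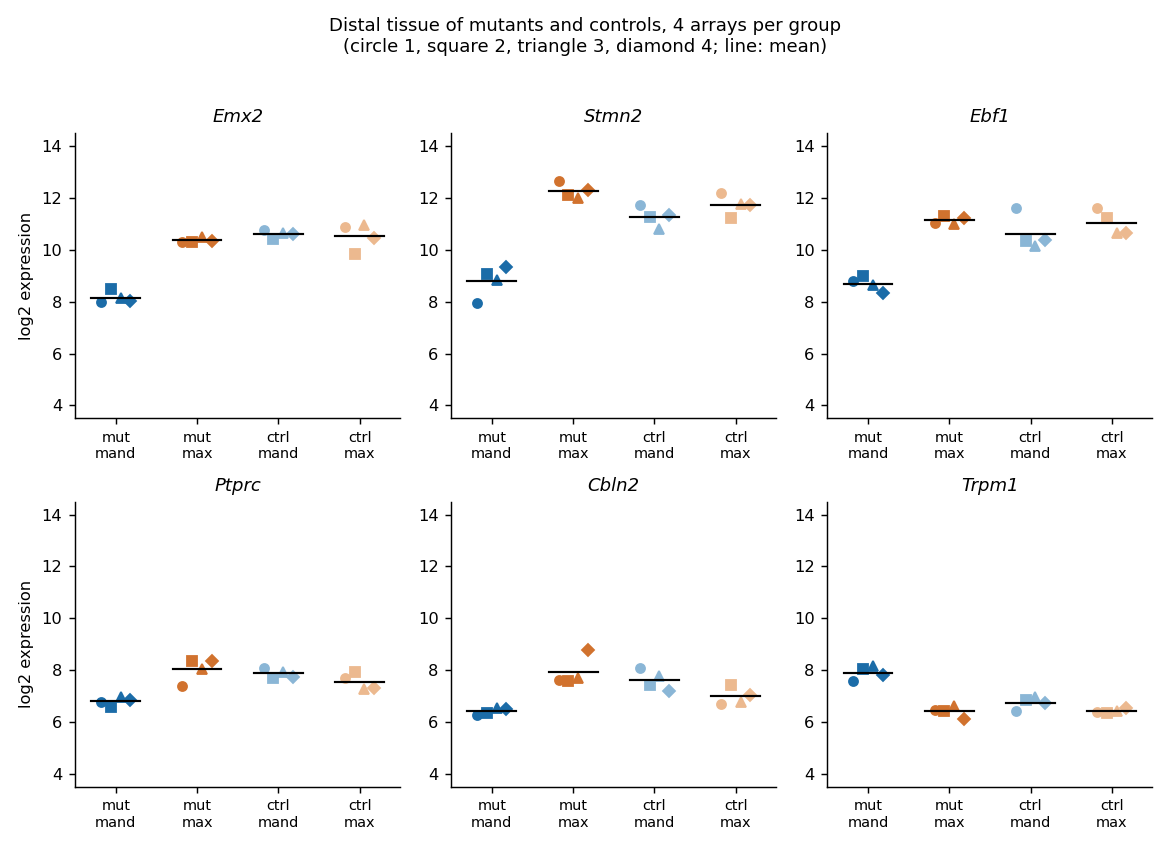
Log2 expression (vertical axis) of 6 genes called in the interaction of genotype and jaw, on the 4 arrays of each distal group (mutant and control, mandible and maxilla), with marker shapes for array numbers 1 to 4 and a line at each group mean. For Emx2 the mutant mandible (7.99 to 8.50) lies below the other 3 groups (9.84 to 10.98), and for Trpm1 it lies above them.

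The identity genes were not among the 14, apart from Emx2. Of 19 lower-jaw genes 0 and of 16 upper-jaw genes 1 passed the interaction, and 2 and 4 had an unadjusted p under 0.05. The lower-jaw list had a median jaw difference of 0.58 in mutants and 0.35 in controls, and the upper-jaw list -0.84 and -0.37. Side by side, the mutant and control differences were 5.72 and 5.00 for Hand2, 2.12 and 1.38 for Dlx6, 1.94 and 2.71 for Pitx1, 1.03 and 0.99 for Gsc, -6.32 and -4.39 for Lhx2, -1.63 and -1.39 for Six2 and -1.84 and -1.72 for Foxl2. For none of these 7 genes was a difference between the genotypes shown (interaction adjusted p = 0.555 to 0.987), and the SEs of their interactions ran from 0.33 (Six2) to 0.745 (Hand2).

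The proximal end of the same mutants gave 420 called genes (3.06%), 172 (1.26%) higher and 248 (1.81%) lower in the mandible. Same-numbered arrays of the jaws deviated together there, as most did at the distal end. A fit to the proximal mutant arrays alone called 225 genes, and the same fit with the replicate number as a block called 203. Without maxilla array 3 of that end the count was 260, and without maxilla array 4 it was 278. Of the distal calls, 238 were also called at the proximal end in the same direction and 16 in the opposite one. Genes called in all 3 contrasts (mutant distal, control distal and mutant proximal) in 1 direction numbered 74, with 10 higher in the mandible, among them Hand2, Pitx1, Gsc and Tbx4, and 64 lower, among them Lhx2, Otx2, Sp8, Neurog1, Neurod1, Six3, Foxl2 and Aldh1a3. Of the 203 proximal genes called with the block, 96 were called distally in the same direction and 6 in the opposite one, and 28 were called in all 3 contrasts, 7 higher and 21 lower. Of the genes just named, Hand2, Pitx1, Lhx2, Otx2 and Six3 were among these 28.

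The jaw difference itself differed between the ends for 238 genes (1.74%), 54 (0.394%) with the distal value above and 184 (1.34%) with it below. Leaving out single arrays gave 132 to 329 genes, the lowest without mutant proximal mandible array 1, with 135 to 157 without proximal mandible array 3, proximal maxilla array 1 or 3, or distal mandible array 2, 3 or 4. With the distal difference above the proximal one were, besides Alx1 and Cbln4 (4.26 ± 0.66), the paired homeobox gene Pax3 (4.00 ± 0.73, adjusted p = 0.0023), the tendon gene Tnmd (3.11 ± 0.70, adjusted p = 0.0174) and the synaptic scaffold gene Dlg2 (3.08 ± 0.42, adjusted p = 1.11e-04). Cbln4 read 6.89 to 8.01 in the proximal mandible and 6.72 to 7.93 in the proximal maxilla, so the jaws overlapped there. Below were the growth hormone-releasing hormone gene Ghrh (-3.45 ± 0.33, adjusted p = 6.29e-07) and Dlx4os (-3.42 ± 0.40), a transcript annotated opposite Dlx4. Both were under or near the filter level in the distal groups and higher in the proximal mandible, Ghrh at 8.40 to 9.98 and Dlx4os at 9.64 to 9.95. The neuronal membrane gene Slitrk1 (-3.44 ± 0.55) read 5.56 to 6.32 in the distal and 8.50 to 10.32 in the proximal mandible. Because the arrays labelled distal and proximal maxilla 4 read against the labels of their ends, values without them are given here. Leaving out both, with the control maxilla arrays of number 2, gave 235 called genes. The difference of Alx1 between the ends was then 4.57 ± 0.56 (adjusted p = 9.01e-05), that of Cbln4 4.65 ± 0.46 and that of Ghrh -3.47 ± 0.37, while that of S100a9 was not called (-3.90, adjusted p = 0.0567).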

How the data were processed

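The deposited table gives log2 expression values made by RMA (robust multi-array average), as named per the submitters' processing notes. The software version is not given in the sources used here. These values were used as they stand. Of 45101 probe sets, 34945 map to 1 gene symbol, 932 to several and 9160 to none, and 64 are controls. Probe sets had to exceed percentile 40 of the array (the filter level) on 4 or more of the 32 arrays. Where several remained for a gene, the one with the greatest average was used, which left 13705 genes, of which 13639 matched RefSeq by Entrez number. The number of arrays, 4 in a group, limits the precision.

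Group means of all 8 groups of 4 arrays were fitted with limma 3.58.1 (R 4.3.3; lmFit and eBayes, 24 residual degrees of freedom), with contrasts for the jaw difference and its interactions with genotype and end, and Benjamini-Hochberg adjustment over all genes at 0.05. The genes named are Tgfbr1, the 14 largest called differences in each direction, up to 6 members of each pathway list and up to 3 of each marker list with the smallest adjusted p, any measured member of the lower-jaw and upper-jaw identity lists, and up to 6 called genes in each direction of each interaction. The lists and members were chosen with earlier results of these data known. Same-numbered mandible and maxilla arrays tended to deviate together at both ends of the mutant jaws. For numbers 1 to 4 the correlations were 0.38, 0.31, 0.20 and 0.32 proximally and 0.38, 0.21, 0.27 and 0.07 distally. The main fits have no block, as the labels do not say whether same-numbered arrays are of the same embryo. A pairing by number is therefore not excluded, and results with the block are given below.

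The fit was tested on simulated data with 200 changed genes among 13705. It recovered 57.4% of genes changed by 0.5, 80.3% of those changed by 1 and 98.5% of those changed by 2 (log2). Genes that were not changed made up 10 of the calls (6%). The simulated noise was independent between genes and arrays, without arrays that stand apart, so these shares may not hold for the real arrays. The 200 changed genes were also fewer than the 1874 called in the data. The Benjamini-Hochberg threshold depends on the share of changed genes, so the recovery is not that of this contrast. Alternatives were other filters, repeated quantile normalization, the mean of a gene's probe sets, a replicate block, only the contrast's groups, number 1 as a batch term, and single arrays left out. Leaving out the maxilla arrays that stood apart was chosen after seeing the data. Promoters are from RefSeq GRCm38.p6, searched on both strands for the E-box CANNTG, its form CAGCTG and the CArG box.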

Additional observations from a re-analysis of the deposited data

Results flagged for a closer look

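Values of 338 groups of 4 arrays (genes named above and list means, by jaw) were screened for an array far from the other 3 by Dixon's test, in which chance alone picks about 1 group in 20, and 24 were picked. Of these, 9 were of maxilla array 4 and 9 of maxilla array 1, the arrays described above as standing apart. Maxilla array 4 was away from the other 3 arrays for Acta2 (11.65, against 9.38 to 9.72), Alx1 (11.94, against 13.32 to 13.56), Cbln2 (8.79, against 7.59 to 7.68), Gpr50 (9.57, against 4.61 to 5.09), Slitrk1 (9.74, against 8.56 to 8.75), Sp8 (8.67, against 10.07 to 10.12), Ttn (8.28, against 5.72 to 6.12), upper-jaw identity list mean (10.92, against 10.58 to 10.58) and brain and pituitary list mean (9.61, against 7.68 to 7.96). Maxilla array 1 was away for Cited1 (8.10, against 9.93 to 10.24), Col6a2 (12.03, against 11.30 to 11.42), Foxl2 (9.38, against 10.10 to 10.24), Ghrh (6.24, against 5.30 to 5.44), Gna11 (11.33, against 12.03 to 12.06), Lhx8 (8.88, against 10.45 to 10.76), Pmel (8.22, against 9.08 to 9.18), Sfrp4 (7.29, against 7.11 to 7.14) and Hox genes list mean (6.51, against 6.21 to 6.26). Maxilla array 3 was away for Lhx9 (5.61, against 5.16 to 5.18). In the mandible, array 1 was away for Col6a2 (12.70, against 12.29 to 12.35) and Sox5 (8.02, against 8.72 to 8.78), array 2 for Ttn (8.88, against 9.95 to 10.03) and FGF pathway list mean (9.15, against 9.25 to 9.27) and array 4 for Six2 (10.55, against 10.99 to 11.02). The cause of these values was not tested.

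Among the genes named, the jaw difference at the distal end differed between the genotypes, by the limma interaction, for Cbln2 (-2.14), Dnajc6 (-1.52), Ebf1 (-2.04), Emx2 (-2.28), Ptprc (-1.56), Stmn2 (-3.03) and Trpm1 (1.19), in which a negative value means a lower mandible relative to the maxilla in mutants. Between the ends of the mutant jaws, the interaction was positive, with the mandible higher relative to the maxilla at the distal end, for Alx1 (5.17), Cbln4 (4.26), Pax3 (4.00), Tnmd (3.11), Dlg2 (3.08), Lhx9 (2.54), Tbx4 (2.40), Lhx8 (2.37), Tbx3 (1.86), Bmp4 (1.81) and Notum (1.33). It was negative for S100a8 (-4.18), S100a9 (-4.09), Arg1 (-3.90), Ghrh (-3.45), Slitrk1 (-3.44), Dlx4os (-3.42), Lhx2 (-3.29), Bmpr1b (-3.11), Epyc (-3.01), Cldn9 (-2.95), Lox (-2.92), Bmper (-2.85), Gbx2 (-2.68), Foxc1 (-2.61), Ebf1 (-2.55), Dlx4 (-2.43) and Emx2 (-2.33), and to a smaller extent for Nr2f1 (-2.19), Ms4a7 (-2.12), Foxd1 (-1.98), Meis1 (-1.90), Nr2f2 (-1.81), Krt8 (-1.77), Cbln2 (-1.75), C1qc (-1.66), Sfrp1 (-1.64), Fcgr3 (-1.50), Tgfbi (-1.36), Dnajc6 (-1.20) and Gng8 (-1.14). Adjusted p-values ran from 6.29e-07 (Ghrh) to 0.0497.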

How the results depend on the processing

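The mutant distal count of 1874 genes stayed within 1.5 times under 17 of 22 alternatives. Fitted to the groups of the contrast alone it was 1269 (324 higher and 945 lower in the mandible), and with the replicate block added to that fit 1015 (230 higher and 785 lower). Of these 1015 genes, 874 were among the 1874. Genes named above that lost their call with the block included Myog (adjusted p = 0.0659), Actc1 (0.0882), Mymk (0.0514) and Fgfr4 (0.0726). Gpr50 (0.0529), Cited1 (0.0771), Nr2f1 (0.0682) and Meis1 (0.0651) lost theirs too, while Hand2 (0.00179) and Lhx2 (1.88e-04) kept theirs. The count was 1112 without mutant distal maxilla arrays 1 and 4. Leaving out a replicate number in all groups gave 958 to 2137 genes, and leaving out single arrays 1391 to 1927. The share of calls higher in the mandible, 32.1%, was 21.6% without number 1, 21.7% without maxilla array 1 and 18.2% without maxilla arrays 1 and 4, against 38.4% with the mean of probe sets and 39.3% with number 1 as a batch term (2796 genes). The genotype by jaw count of 14 was 6 without the filter, 6 with the stricter filter and 4 with the mean of probe sets, 0 to 13 when numbers were left out, 0 to 26 when arrays were, 15 with only the groups of the contrast and 18 with the block added to those. The jaw by end count of 238 was 54 to 198 without a number, 132 to 329 without an array, 254 with only the groups of the contrast and 290 with the block added. The control distal count of 202 was 115 with only the groups of the contrast, 99 with the block added, 66 to 351 without a number and 130 to 231 without an array. The mutant proximal count of 420 was 225 with only the groups of the contrast, 203 with the block added, 127 to 628 without a number and 260 to 516 without an array.

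Of 119 called genes named, none changed direction under 2616 recomputed values, and 306 of these missed the threshold. Of 18 not called, 13 of 394 values changed direction. With the mean of probe sets Tgfbr1 was 0.228 (-0.10 otherwise) and the BMP list median 0.032 (-0.038 otherwise). When numbers or single arrays were left out, the mandible minus maxilla difference ran from -0.248 to 0.334 for Dlx4os, from -0.157 to 0.175 for Ghrh and from -0.283 to 0.458 for Dlx3. Without maxilla arrays 1 and 4, Dlx4os was 0.087 and Ghrh 0.209. Dlx3 was -0.238 when maxilla arrays 4 of the mutants and 2 of the controls were omitted. The cause of these shifts was not tested. The settings that leave out pairs of maxilla arrays were chosen after seeing the data. Probe signal over background limits the low genes, for which no detection call was used.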

Other observations

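Xist, the RNA that coats the inactive X chromosome, read 13.34 on mutant distal maxilla array 1 and 13.90 on mutant distal mandible array 1, with mean levels of the Y-linked genes Kdm5d, Eif2s3y and Uty of 4.19 and 4.15. The other mutant distal arrays read 6.54 to 6.96 for Xist and 10.09 to 10.18 for the Y-linked genes, so the high Xist level was that of 1 array in each jaw. Among the controls, the maxilla arrays of number 3 read Xist at an intermediate level (9.69 distal and 10.72 proximal) with Y-linked genes at 10.05 and 9.97.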
